A study of Mus musculus with 18 samples.

Results

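The genes described here encode the machinery of homologous recombination and of the Fanconi anaemia pathway, measured in small-intestinal crypts of mice that lacked E2f1, E2f2 and E2f3, Myc, or all of these. The list holds 34 genes, and 32 of them were measured among the 18193 genes with a probe set of a single symbol. Where a gene had several probe sets, it was read from the brightest one, by mean signal across the 18 arrays. Xrcc2 and Rbbp8 were not analysed here.

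The arrays fell into 4 groups by the sample titles. E2f/Myc QKO crypts (called QKO, 5 arrays) lacked Myc and E2f1 to E2f3 together. E2f TKO crypts (5 arrays) were labelled as lacking E2f1 to E2f3, Myc KO crypts (4 arrays) lacked Myc, and control crypts gave 4 arrays. Deletion used Ah-cre, an inducible Cre recombinase under the Cyp1a1 promoter that acts in the intestine, in adults aged 2 months, and crypts were taken 2 days after ablation. The labels do not say whether control mice carried the Cre or received its inducer, nor whether each E2f allele was floxed or already lost in the germline. A crypt holds stem, dividing, Paneth, goblet and other cells, so in this bulk RNA fewer cells of a type and less RNA per cell cannot be told apart.

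Homologous recombination repairs double-strand breaks and restarts stalled replication forks by copying an intact sister. The MRN complex prepares the broken end, BRCA1 and BRCA2 complexes ready it for pairing, and paralog complexes and motor proteins help it find and invade the sister. The Fanconi core complex marks FANCD2 and FANCI with ubiquitin at interstrand crosslinks, which nucleases then unhook. Cells use these proteins mainly while they copy DNA, and crypts renew the gut lining by rapid division. E2F factors and Myc both bind promoters of cell cycle genes. E2F1 to E2F3 are known mainly as activators, and their sites resemble the 7-letter cores searched for below.

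RefSeq promoter windows of 300 bases in the GRCm38.p6 build were found for 26 of the 32 genes, as 30 windows. Capitals mark every copy of an E2F-type core on either strand. The cores searched were TTCCCGC (the first), TTCGCGC (the second), TTGCCGC (the third) and the last of them TTGGCGC. A copy on the opposite strand is seen as its reverse complement. The 4 windows below were chosen to show a core beside different responses, and each is written 5′ to 3′ on the strand of its gene. Rad51c had the smallest adjusted p of all members, Fancg rose in QKO and E2f TKO crypts, Rad52 fell in QKO crypts, and Fancm did not pass the test in any comparison. The windows lie at chr11:87404905-87405204 (minus strand, the more upstream of the 2 Rad51c windows), chr4:43010252-43010551 (minus strand), chr6:119902448-119902747 (plus strand) and chr12:65075353-65075652 (plus strand).
Rad51c: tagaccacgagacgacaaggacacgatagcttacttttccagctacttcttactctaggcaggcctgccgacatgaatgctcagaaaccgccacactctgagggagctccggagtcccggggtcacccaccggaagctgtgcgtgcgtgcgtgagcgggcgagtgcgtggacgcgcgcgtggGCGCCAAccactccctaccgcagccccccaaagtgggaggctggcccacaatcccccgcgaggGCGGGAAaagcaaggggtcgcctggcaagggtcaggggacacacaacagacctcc
Fancg: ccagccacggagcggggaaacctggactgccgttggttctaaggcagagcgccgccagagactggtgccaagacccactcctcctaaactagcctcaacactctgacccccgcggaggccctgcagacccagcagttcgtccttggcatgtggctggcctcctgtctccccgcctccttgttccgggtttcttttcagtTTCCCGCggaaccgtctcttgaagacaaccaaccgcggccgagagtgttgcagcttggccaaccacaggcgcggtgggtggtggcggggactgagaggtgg
Rad52: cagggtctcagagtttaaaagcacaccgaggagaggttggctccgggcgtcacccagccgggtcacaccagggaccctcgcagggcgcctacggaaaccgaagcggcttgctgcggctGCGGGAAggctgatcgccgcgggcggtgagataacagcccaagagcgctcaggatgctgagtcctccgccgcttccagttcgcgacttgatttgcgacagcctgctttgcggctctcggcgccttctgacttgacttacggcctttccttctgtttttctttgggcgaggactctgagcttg
Fancm: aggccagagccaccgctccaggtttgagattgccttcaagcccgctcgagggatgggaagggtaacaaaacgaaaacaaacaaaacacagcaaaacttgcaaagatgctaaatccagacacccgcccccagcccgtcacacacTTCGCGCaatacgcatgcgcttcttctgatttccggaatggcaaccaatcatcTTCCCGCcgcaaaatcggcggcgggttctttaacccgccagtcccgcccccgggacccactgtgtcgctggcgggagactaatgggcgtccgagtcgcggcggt
Because these windows were chosen for their cores and responses, they do not show how often a core went with a response. A later paragraph gives the counts over all genes with a window.

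All values are log2 signals as deposited, with array medians from 6.14 to 6.26. Genes that define intestinal epithelium averaged 12.63 to 13.00 in each array. Myc read 7.94 to 8.52 in QKO and 8.11 to 8.40 in Myc KO arrays, against 9.99 to 10.66 in E2f TKO and 9.69 to 10.30 in control arrays. E2f3 read 8.09 to 8.19 in QKO, 8.08 to 9.35 in E2f TKO, 8.44 to 8.60 in Myc KO and 8.62 to 8.96 in control arrays. The arrays labelled E2f TKO 2 and 5 went against their label: their E2f3 signals of 9.35 and 9.10 exceeded every control array, and their Cyp1a1 signals were 5.05 and 4.91, against 12.66 to 14.09 in the other arrays. Single-gene values of E2f TKO crypts come from all 5 arrays unless stated, and a later paragraph gives the members and the counts of calls without this pair. Whether the probe sets lie within the deleted exons was not checked. The labels give no sex, and Xist was high (12.02 to 13.40) in QKO 4 and 5, E2f TKO 1 and 4 and control 3. Nothing says that arrays came from separate mice, so p-values measure the spread between these samples.

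Most members that passed the test against control did so after joint loss of Myc and the E2f genes. In QKO crypts 12 of the 32 rose and 4 fell against control, with a median log2 difference of 0.17 over the members and 0.03 over all genes. Over all 18193 genes, 14.3% rose and 12.6% fell in that comparison. In E2f TKO crypts 3 members rose (Rad54l, Fancc and Fancg) and 0 fell, where 1.68% of all genes rose and 1.22% fell. At the looser threshold of an unadjusted p under 0.05 there were 10 members, and the share over all genes was not counted. Rad54l and Fancg lie on chromosome 4 with E2f2, and Fancc lies on chromosome 13 with E2f3. Nbn and Rad54b on chromosome 4 and Rmi1 on chromosome 13 did not pass. A part of this shared position in the calls was not tested. In Myc KO crypts 2 rose (Rad51c and Fancc) and 1 fell (Mre11a), where 3.59% of all genes rose and 4.72% fell. The members' median difference was 0.08 in E2f TKO and -0.09 in Myc KO crypts, beside -0.00 and 0.02 over all genes. A gene is said to rise or fall where the Benjamini-Hochberg adjusted p of the limma fit was below 0.05. These 3 comparisons share the control arrays.

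**Figure D1:**
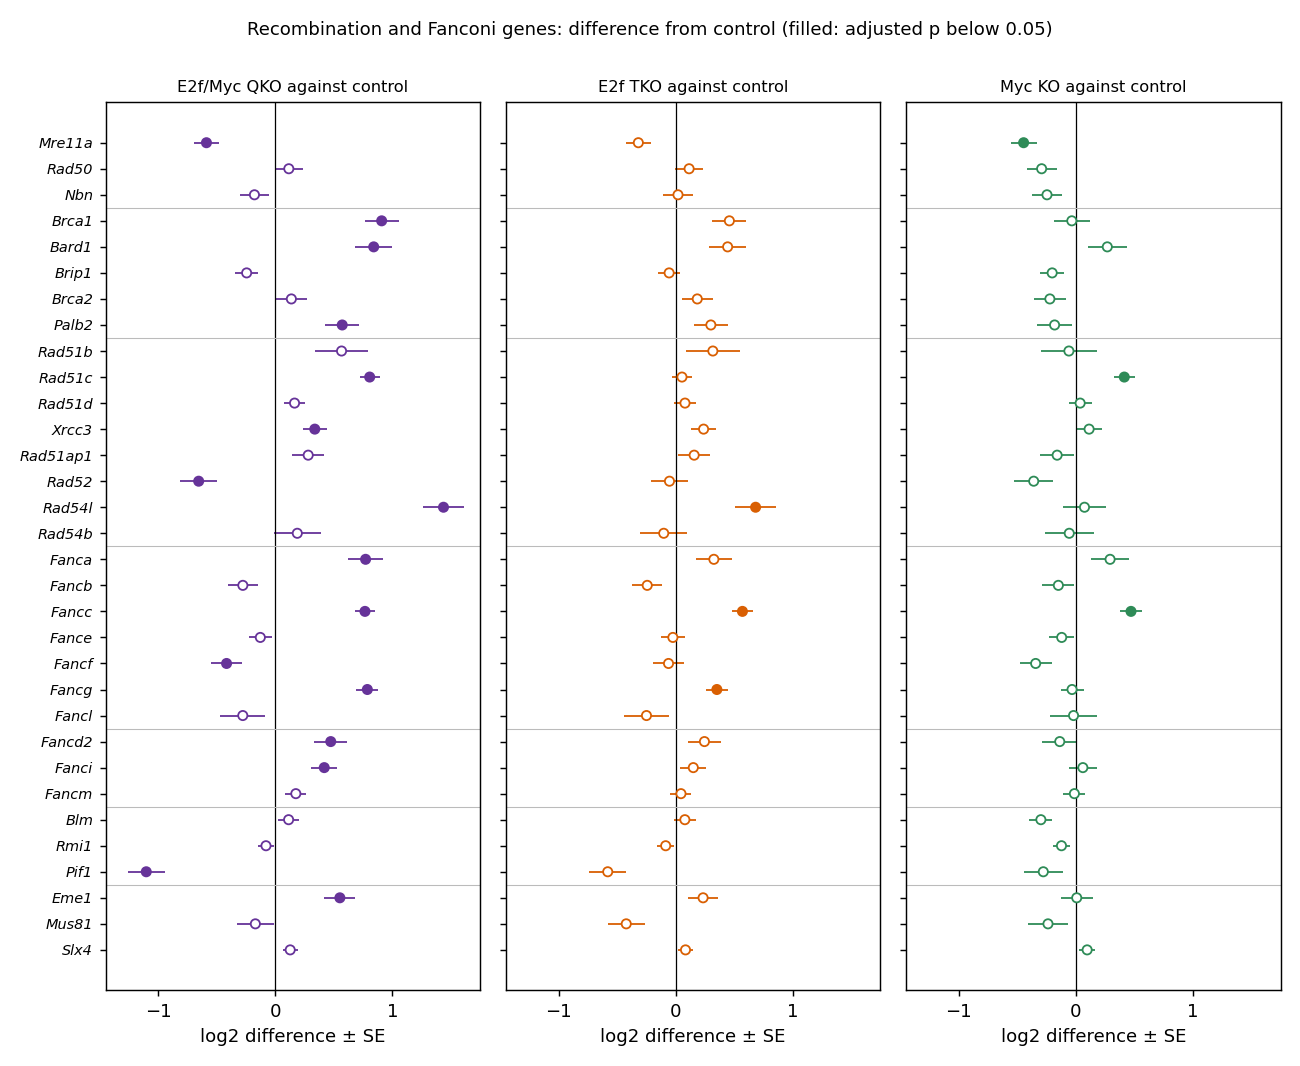
Log2 difference from control (x axis, ± SE) of each of the 32 genes (y axis, grouped by role) in E2f/Myc QKO, E2f TKO and Myc KO crypts. Filled points passed the test: 16 in QKO, 3 in E2f TKO and 3 in Myc KO crypts, with Rad54l highest at 1.44 and Pif1 lowest at -1.10, both in QKO crypts.

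Of the MRN complex, which senses and trims broken ends, 1 of 3 subunits changed in QKO crypts. Mre11a, the nuclease subunit, read 7.46, 7.66, 7.60, 7.89 and 7.84 in QKO, 7.64, 8.09, 7.88, 8.09 and 8.10 in E2f TKO, 7.83, 7.75, 7.76 and 7.99 in Myc KO, and 8.22, 8.23, 8.22 and 8.44 in control arrays. Every QKO, E2f TKO and Myc KO array lay below every control array, the arrays labelled E2f TKO 2 and 5 included. The difference from control was -0.59 ± 0.11 (SE) in QKO crypts (limma adjusted p = 0.000605) and -0.45 ± 0.11 in Myc KO crypts (adjusted p = 0.0203). In E2f TKO crypts it was -0.32 ± 0.11 and did not pass (adjusted p = 0.139). A dimmer probe set of Mre11a gave 0.12 in QKO and 0.04 in Myc KO crypts, so the fall rests on 1 of 2 probe sets. With the mean of both, neither call held (adjusted p = 0.0593 in QKO and 0.19 in Myc KO crypts). The Myc KO call was also lost without control 4 (adjusted p = 0.0763), Myc KO 2 (0.0691) or Myc KO 3 (0.0518). Rad50, the ATPase that tethers DNA ends, and Nbn, which recruits the damage kinase ATM, did not pass against control. That holds for every genotype with the settings used. Rad50 differed by 0.11 and Nbn by -0.18 in QKO crypts. Nbn spanned 8.36 to 8.58 in QKO and 8.58 to 8.84 in control arrays.

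The BRCA complexes gave 3 of 5 genes that rose in QKO crypts and 0 that fell. Brca1, whose protein promotes resection of broken ends, read 9.07, 9.24, 9.32, 9.77 and 9.59 in QKO, 8.70, 9.05, 9.09, 9.31 and 8.60 in E2f TKO, 8.33, 8.42, 8.43 and 8.65 in Myc KO, and 8.30, 8.51, 8.54 and 8.61 in control arrays. All QKO arrays stood above all Myc KO and control arrays, while E2f TKO arrays lay between and overlapped both sides. The difference from control was 0.91 ± 0.15 in QKO crypts, a 1.88-fold increase (limma adjusted p = 0.000273). It was 0.46 ± 0.15 in E2f TKO (adjusted p = 0.119) and -0.03 ± 0.15 in Myc KO crypts (adjusted p = 0.922).

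Bard1, the partner with which BRCA1 forms a ubiquitin ligase, read 5.85, 6.51, 6.06, 6.57 and 6.13 in QKO, 5.55, 5.71, 5.88, 6.29 and 5.71 in E2f TKO, 5.49, 5.50, 5.87 and 5.76 in Myc KO, and 5.23, 5.26, 5.42 and 5.63 in control arrays. QKO and control arrays did not overlap, and the difference was 0.84 ± 0.16 (limma adjusted p = 0.000965). Its mean signal of 5.80 was below the median of every array, and Bard1, Brip1, Rad51b, Rad52, Rad54b, Fancm and Pif1, 7 of the 32 members, lay below the median level over genes, where a low signal is not told apart from background. Palb2, the bridge between BRCA1 and BRCA2, read 7.54, 7.82, 7.66, 8.12 and 8.01 in QKO, 7.10, 7.81, 7.53, 7.77 and 7.59 in E2f TKO, 7.12, 6.73, 7.18 and 7.28 in Myc KO, and 7.19, 7.28, 7.21 and 7.36 in control arrays. The QKO arrays were again all above control (0.57 ± 0.14, adjusted p = 0.00741). Brca2, which binds single-stranded DNA at resected breaks, spanned 8.81 to 9.32 in QKO and 8.68 to 9.14 in control arrays and did not pass (0.14, adjusted p = 0.481). Brip1, a helicase that binds BRCA1, spanned 6.34 to 6.58 in QKO and 6.45 to 6.85 in control arrays, a difference of -0.25 (adjusted p = 0.0669). Under some alternatives Brip1 fell in QKO crypts, such as with array weights (-0.28, limma adjusted p = 0.0104) and quantile normalization (-0.33, 0.0156). Neither Palb2, Bard1, Brca2 nor Brip1 passed in E2f TKO or Myc KO crypts with the settings used.

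Among the recombination paralogs and strand-exchange helpers, 3 of 8 rose in QKO crypts and 1 fell. Rad51c, a subunit shared by both paralog complexes, read 7.80, 7.93, 8.05, 8.06 and 8.00 in QKO, 6.88, 7.36, 7.22, 7.34 and 7.28 in E2f TKO, 7.51, 7.68, 7.54 and 7.57 in Myc KO, and 7.14, 7.12, 7.19 and 7.19 in control arrays. The QKO arrays lay above all others, the Myc KO arrays came next without touching the E2f TKO or control arrays, and the E2f TKO arrays straddled control. The difference from control was 0.81 ± 0.09 in QKO (limma adjusted p = 7.62e-06), 0.05 ± 0.09 in E2f TKO (adjusted p = 0.865) and 0.41 ± 0.09 in Myc KO crypts (adjusted p = 0.0108). Rad51c rose in QKO and in Myc KO crypts under all 28 alternative settings, and its second probe set differed by 1.11 in QKO crypts. Its 2 promoter windows both held E2F-type cores, 2 in the window printed above and 1 in the other.

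Rad54l, a motor protein that drives strand invasion, had the largest difference of any member. It read 9.89, 10.39, 10.19, 10.85 and 10.43 in QKO, 9.29, 9.33, 9.91, 10.03 and 9.43 in E2f TKO, 9.05, 8.72, 9.04 and 9.14 in Myc KO, and 8.80, 8.85, 8.92 and 9.08 in control arrays. QKO and E2f TKO arrays all exceeded the control arrays, and the Myc KO arrays overlapped control. The difference was 1.44 ± 0.17 in QKO crypts, a 2.71-fold increase (limma adjusted p = 2.29e-05). In E2f TKO crypts it was 0.68 ± 0.17 (adjusted p = 0.0416), a call lost under 14 of 28 alternative settings, among them the omission of any control array (adjusted p = 0.0672 to 0.114). All 4 Rad54l probe sets were higher in QKO crypts, by 1.02 to 1.44.

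Rad52, which anneals complementary single strands, went the other way. It read 6.0, 6.06, 6.42, 6.17 and 6.27 in QKO, 6.46, 7.44, 6.60, 6.64 and 6.81 in E2f TKO, 6.65, 6.46, 6.53 and 6.29 in Myc KO, and 6.64, 7.03, 6.68 and 7.03 in control arrays. QKO arrays were all below E2f TKO and control arrays, and the difference from control was -0.66 ± 0.16 (limma adjusted p = 0.00582), again at a low signal. Both Rad52 probe sets were lower in QKO crypts, by -0.66 and -0.46. Xrcc3, the paralog that pairs with RAD51C, spanned 7.77 to 7.98 in QKO and 7.40 to 7.72 in control arrays and rose by 0.34 ± 0.10 (adjusted p = 0.0227). That call was lost without control 1, 2 or 3 or QKO 4 (adjusted p = 0.0675, 0.0517, 0.0614 and 0.05004), and the other Xrcc3 probe set gave -0.14. Rad51b, Rad51d, Rad51ap1 and Rad54b did not pass in any comparison with the settings used. Their QKO differences from control were 0.57, 0.16, 0.28 and 0.19. With averaged probe sets Rad51d (0.26, limma adjusted p = 0.0038) and Rad51b (0.35, 0.0386) passed in QKO crypts against control. Rad51ap1 passed against Myc KO crypts under some alternatives, such as without the arrays labelled E2f TKO 2 and 5 (0.44, adjusted p = 0.0476). Rad51b spanned 6.44 to 7.43 in QKO and 6.04 to 6.51 in control arrays, and Rad51d 7.90 to 8.14 in QKO and 7.69 to 7.96 in control arrays. Rad51ap1 spanned 8.52 to 9.14 in QKO and 8.44 to 8.57 in control arrays, and Rad54b 6.69 to 7.30 in QKO and 6.67 to 6.93 in control arrays. The QKO and control arrays thus overlapped for each of these 4 genes.

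**Figure D2:**
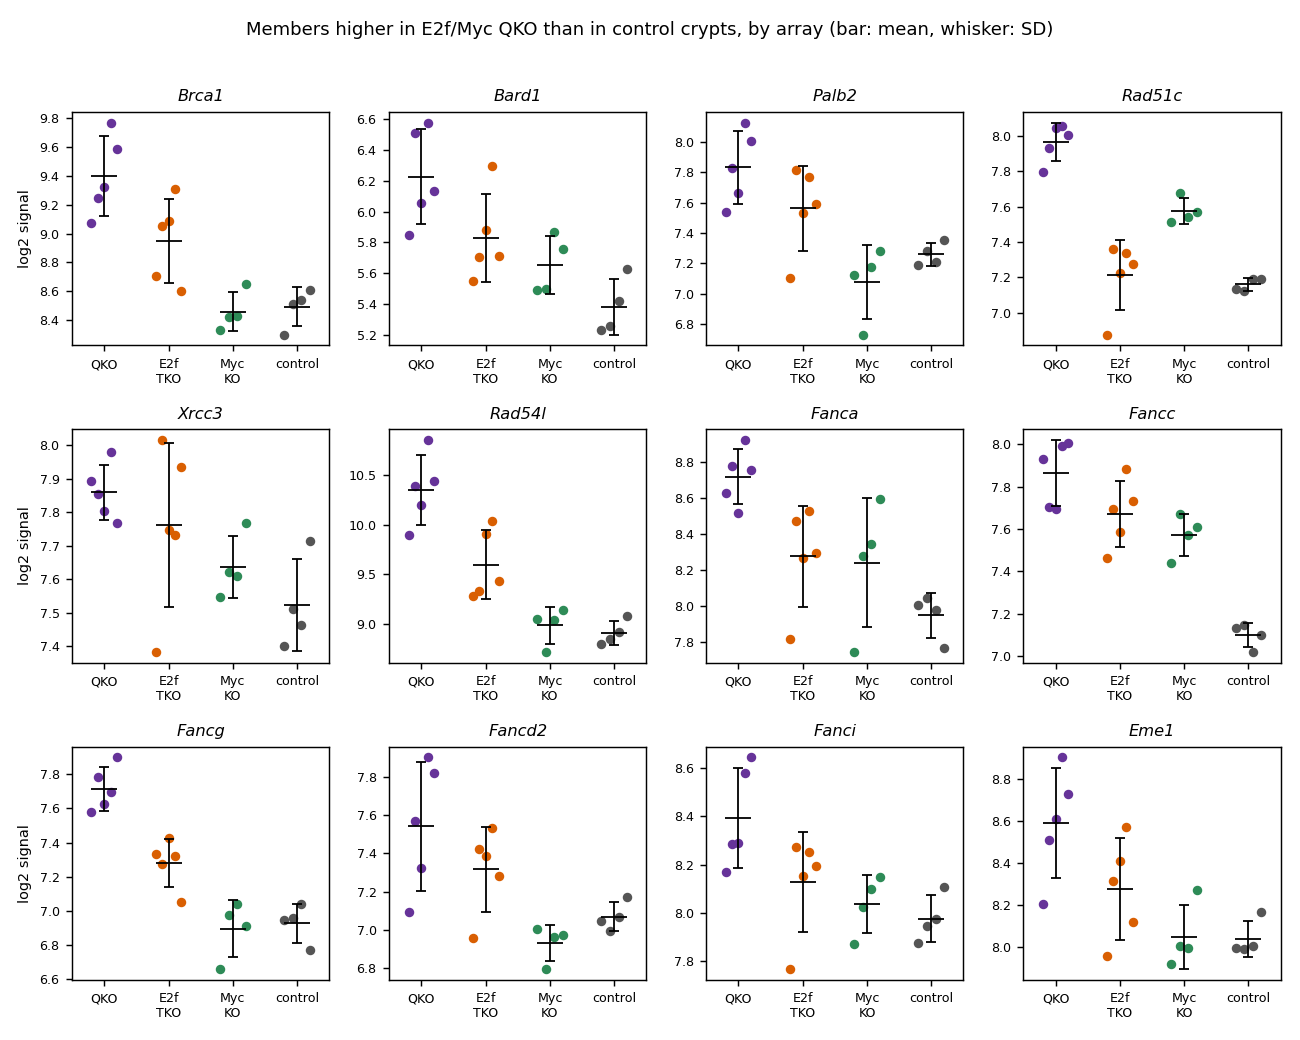
Log2 signal (y axis) of the 12 genes that rose in QKO crypts, by genotype (x axis), with 1 point per array, the mean as a bar and the SD as a whisker. The panels were chosen by the test on these same values, so separate groups are likely in them. All QKO arrays exceed all control arrays in 11 of the 12 panels, which is 11 of the 32 members, beside 13.2% of all genes. In Fancd2 the QKO and control arrays overlap, with the lowest QKO array at 7.09 and the highest control array at 7.17.

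The Fanconi core complex, the ubiquitin ligase of the pathway, had calls in both directions: 3 of its 7 measured genes rose in QKO crypts, 1 fell and 3 did not pass. Fancg read 7.58, 7.78, 7.62, 7.69 and 7.90 in QKO, 7.33, 7.28, 7.43, 7.32 and 7.05 in E2f TKO, 6.66, 6.98, 7.04 and 6.91 in Myc KO, and 6.95, 6.96, 7.04 and 6.77 in control arrays. The order was QKO above E2f TKO above control with no overlap, while Myc KO arrays spread over the control range. The difference from control was 0.79 ± 0.09 in QKO (limma adjusted p = 1.82e-05) and 0.35 ± 0.09 in E2f TKO crypts (adjusted p = 0.0484). The E2f TKO call lay at the threshold and was lost in 19 of 28 alternative settings, with adjusted p-values up to 0.177. Fanca, which forms a subcomplex with FANCG, read 8.63, 8.78, 8.52, 8.92 and 8.76 in QKO, 7.82, 8.47, 8.27, 8.53 and 8.30 in E2f TKO, 7.75, 8.28, 8.35 and 8.60 in Myc KO, and 8.01, 8.05, 7.98 and 7.77 in control arrays. Only the QKO arrays were separate from control, by 0.77 ± 0.15 (adjusted p = 0.0014).

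Fancc passed the test in all 3 genotypes. It read 7.93, 7.70, 7.69, 7.99 and 8.01 in QKO, 7.46, 7.70, 7.58, 7.88 and 7.73 in E2f TKO, 7.44, 7.67, 7.57 and 7.61 in Myc KO, and 7.13, 7.15, 7.02 and 7.10 in control arrays. No QKO, E2f TKO or Myc KO array reached the control range, with differences of 0.77 ± 0.09 in QKO, 0.57 ± 0.09 in E2f TKO and 0.47 ± 0.09 in Myc KO crypts (limma adjusted p = 1.51e-05, 0.0011 and 0.00595). Its 2 dimmer probe sets differed far less, by 0.14 and 0.23 in QKO and by -0.06 and 0.02 in E2f TKO crypts. With the mean of the probe sets the QKO call held at 0.38, and the E2f TKO and Myc KO calls were lost (adjusted p = 0.0937 and 0.0648). FANCC acts in a submodule with FANCE and FANCF. Fancf spanned 7.09 to 7.43 in QKO and 7.52 to 7.76 in control arrays and fell by 0.42 (adjusted p = 0.0233), whereas its dimmer probe sets gave 0.37 and 0.15. Without control 2, 3 or 4 or QKO 2 the Fancf call was lost (adjusted p = 0.0635, 0.0558, 0.0602 and 0.059). Fance, Fancb and Fancl, the last of which carries the ligase activity, had QKO differences of -0.13, -0.28 and -0.28. None passed in any comparison with the settings used. Fancb fell in QKO crypts with array weights (limma adjusted p = 0.0163), with the replicate block (0.0496) and without E2f TKO 1 (0.0434). Fance spanned 7.95 to 8.10 in QKO and 7.88 to 8.30 in control arrays, Fancb 7.06 to 7.38 in QKO and 7.18 to 7.67 in control arrays, and Fancl 8.85 to 9.35 in QKO and 9.24 to 9.50 in control arrays.

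FANCD2 and FANCI form the pair that the core complex ubiquitinates. Fancd2 spanned 7.09 to 7.90 in QKO, 6.96 to 7.53 in E2f TKO, 6.79 to 7.0 in Myc KO and 6.99 to 7.17 in control arrays, and rose by 0.47 ± 0.14 in QKO crypts (limma adjusted p = 0.0187). Without control 2 that adjusted p was 0.0526. Fanci spanned 8.17 to 8.64 in QKO, 7.77 to 8.27 in E2f TKO, 7.87 to 8.15 in Myc KO and 7.88 to 8.11 in control arrays, and rose by 0.42 ± 0.11 (adjusted p = 0.0104). Neither gene passed in E2f TKO or Myc KO crypts, where Fancd2 differed by 0.25 and -0.14 and Fanci by 0.15 and 0.06. Fancm, the translocase that anchors the core complex on DNA, spanned 6.61 to 6.98 in QKO and 6.60 to 6.77 in control arrays, a difference of 0.17 (adjusted p = 0.164).

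Of the 3 genes for helicases and dissolution, Pif1 fell and the other 2 did not pass against control with the settings used. Pif1, a helicase that unwinds G-quadruplexes and acts in break-induced replication, read 6.39, 5.88, 5.95, 6.19 and 6.28 in QKO, 6.43, 7.31, 6.53, 6.27 and 6.76 in E2f TKO, 6.95, 6.89, 6.98 and 7.04 in Myc KO, and 7.16, 7.30, 7.30 and 7.21 in control arrays. The QKO arrays lay below all Myc KO and control arrays. In the E2f TKO group, 4 arrays were below the control range and the array labelled E2f TKO 2 was above it. The difference from control was -1.10 ± 0.16 in QKO crypts (limma adjusted p = 8.77e-05), where the low signal of Pif1 limits what the size of the fall can say. It was -0.58 ± 0.16 in E2f TKO crypts (adjusted p = 0.0545) and -0.28 ± 0.16 in Myc KO crypts (adjusted p = 0.322). All 3 Pif1 probe sets were lower in QKO crypts, by -0.49 to -1.10. Blm, the RecQ helicase that dissolves double Holliday junctions, and Rmi1, its scaffold partner, differed from control by 0.11 and -0.08 in QKO crypts. Rmi1 spanned 8.94 to 9.19 in QKO and 9.12 to 9.19 in control arrays.

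**Figure D3:**
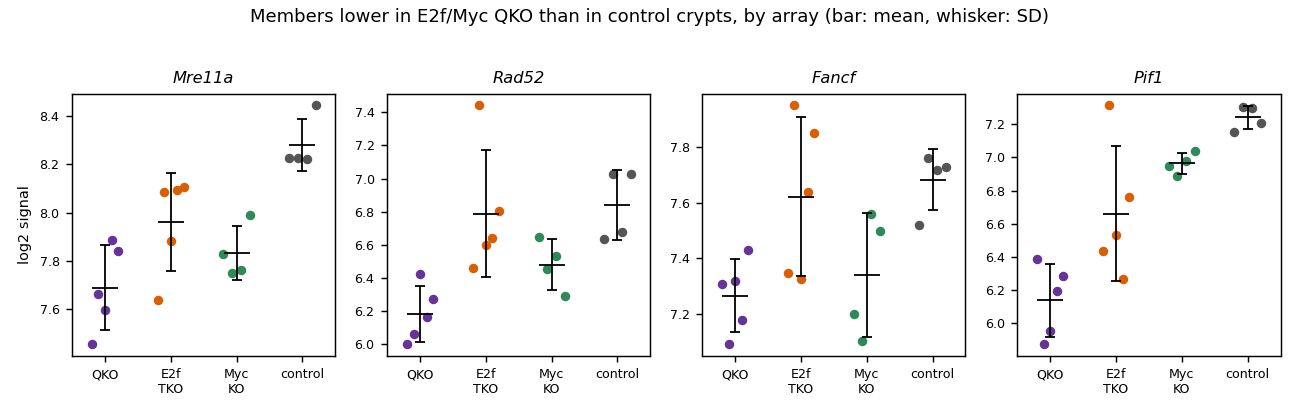
Log2 signal (y axis) of the 4 genes that fell in QKO crypts, by genotype (x axis), with 1 point per array, the mean as a bar and the SD as a whisker. The panels were chosen by the test on these same values, so separate groups are likely in them. QKO arrays lie below all control arrays in all 4 panels, which is 4 of the 32 members, beside 13% of all genes. The array labelled E2f TKO 2 is the highest E2f TKO array for Rad52 (7.44) and Pif1 (7.31).

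Eme1 and Mus81 encode the partner subunits of a structure-specific nuclease that cuts branched recombination intermediates, and of these Eme1 rose in QKO crypts and Mus81 did not pass. Eme1 read 8.20, 8.51, 8.61, 8.90 and 8.73 in QKO, 7.95, 8.32, 8.41, 8.57 and 8.12 in E2f TKO, 7.92, 8.00, 7.99 and 8.27 in Myc KO, and 7.99, 7.99, 8.00 and 8.17 in control arrays. The lowest QKO array stood just above the highest control array, and the difference was 0.55 ± 0.13 (limma adjusted p = 0.00523). Mus81 spanned 7.35 to 7.78 in QKO and 7.47 to 7.94 in control arrays, with a difference of -0.17 (adjusted p = 0.462). Slx4, the scaffold for these nucleases, spanned 7.53 to 7.63 in QKO and 7.34 to 7.55 in control arrays and differed by 0.13 (adjusted p = 0.159). Neither Mus81 nor Slx4 passed in any of the 6 comparisons of the 18 arrays with the settings used.

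Without the arrays labelled E2f TKO 2 and 5, 3 arrays remain in the E2f TKO group, and 4 members rose and 3 fell against control. Over all genes 3.35% then rose and 3.92% fell, and the members' median difference was 0.03. Rad54l (0.83), Brca1 (0.54), Fancc (0.54) and Fancg (0.43) rose, with limma adjusted p-values of 0.0172, 0.0496, 0.00511 and 0.014. Pif1 (-0.83), Mus81 (-0.65) and Mre11a (-0.41) fell, with adjusted p-values of 0.000368, 0.0148 and 0.045. Thus the 3 genes that rose with all 5 arrays did so with 3, and 4 further genes passed. The Pif1 difference of E2f TKO crypts was -0.58 with all 5 arrays and -0.83 with 3. The value was lower without this pair for 25 of the 32 members and higher for 7, with a median absolute shift of 0.09. The same shift was not counted over all genes, so these counts do not set the members apart from other genes. The largest shifts were those of Fancl (-0.54 without the pair and -0.25 with it) and Rad54b (-0.36 and -0.10), and neither passed. The sign turned for 3 members: Rad50 (-0.04 without the pair and 0.12 with it), Nbn (-0.13 and 0.02) and Rad51c (-0.01 and 0.05). Fancd2 (0.22 and 0.25) and Fanci (0.08 and 0.15) also did not pass.

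Against E2f TKO crypts, QKO crypts had 5 members that rose and 2 that fell, where 9.09% of all genes rose and 7.95% fell. The median difference was 0.11 over the members and 0.04 over all genes. Rad51c rose by 0.75 ± 0.08 (limma adjusted p = 3.82e-05), Rad54l by 0.75 ± 0.16 (0.00542), Fancg by 0.43 ± 0.09 (0.0034), Brca1 by 0.45 ± 0.14 (0.033) and Fanca by 0.44 ± 0.14 (0.043). Rad52 fell by 0.60 ± 0.15 (0.0113) and Pif1 by 0.52 ± 0.15 (0.0216). Of the 32 members, only Rad51c and Fancg had QKO arrays wholly above E2f TKO arrays and only Rad52 wholly below, where 5.58% of all genes lay wholly above and 3.64% wholly below. Without the arrays labelled E2f TKO 2 and 5 the counts were 4 and 1, where 6.56% and 5.29% of all genes rose and fell. Rad51c (0.82), Rad54l (0.61) and Fancg (0.35) rose and Rad52 (-0.38) fell, Mus81 (0.47) passed as well, and Brca1 (0.37), Fanca (0.52) and Pif1 (-0.27) did not (adjusted p = 0.128, 0.0608 and 0.101). Leaving out single arrays also removed the Brca1 call (E2f TKO 1 or 5, or QKO 4 or 5, adjusted p = 0.0571, 0.0867, 0.0792 and 0.0719), the Pif1 call (QKO 2 or 3, 0.0615 and 0.0549) and, for 12 of the 18 arrays, the Fanca call (0.051 to 0.0892).

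Against Myc KO crypts, QKO crypts had 10 members that rose and 1 that fell, where 4.6% of all genes rose and 3.09% fell. The median difference was 0.27 over the members and 0.01 over all genes. The increases were 1.36 ± 0.17 for Rad54l (limma adjusted p = 0.000127), 0.94 ± 0.15 for Brca1 (0.000692), 0.82 ± 0.09 for Fancg (4.34e-05), 0.75 ± 0.14 for Palb2 (0.00349) and 0.61 ± 0.14 for Fancd2 (0.0118). Bard1 (0.57), Eme1 (0.54), Blm (0.41), Rad50 (0.41) and Rad51c (0.39) also rose. Pif1 fell by 0.83 ± 0.16 (0.00311). With the settings used, Blm and Rad50 passed in this comparison and not against control. Blm spanned 7.64 to 8.15 in QKO, 7.31 to 7.51 in Myc KO and 7.65 to 7.77 in control arrays, so the Myc KO arrays were the low ones. Rad50 likewise spanned 8.93 to 9.38 in QKO, 8.54 to 8.77 in Myc KO and 8.84 to 9.11 in control arrays. Under some alternatives both fell in Myc KO crypts against control. With array weights Blm differed by -0.31 (limma adjusted p = 0.00659) and Rad50 by -0.29 (0.0281). The Rad50 call of QKO against Myc KO crypts, at an adjusted p of 0.0491, was lost when any of 14 of the 18 arrays was left out (0.0533 to 0.148). The Bard1 call was lost without Myc KO 1, 2 or 4 or QKO 2 or 4 (0.0605 to 0.106), and the Eme1 call without Myc KO 1 (0.0563). With Xist signal as a covariate, 3 of the 11 calls were lost: Bard1 (adjusted p = 0.103), Eme1 (0.0539) and Rad50 (0.0848).

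The interaction asks whether the joint loss differs from the sum of the separate losses on the log2 scale, that is, whether QKO minus Myc KO differs from E2f TKO minus control. By limma 0 of the 32 members passed, where 0.0385% of all genes lay above and 0.0165% below the sum. At the looser threshold of an unadjusted p under 0.05 there were 8 members, and the share over all genes was not counted. Without the arrays labelled E2f TKO 2 and 5, 0 passed as well, and the median of the members was 0.27. Of the members, 25 had a value above 0, with a median of 0.16 beside 0.01 over all genes. The largest values were 0.68 ± 0.25 for Rad54l (adjusted p = 0.695) and 0.49 ± 0.23 for Mus81 (adjusted p = 0.773). Fancc had -0.28 ± 0.12 (adjusted p = 0.765). With 4 or 5 arrays a group these values carry wide errors, and no departure from additivity was detectable for a single member.

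Of 48 other genes of recombination, replication-fork repair and the Fanconi pathway, 44 were measured. In QKO crypts 10 rose and 4 fell, where 14.3% of all genes rose and 12.6% fell. The median difference was 0.05, beside 0.03 over all genes. The 4 with the smallest p were Tonsl (0.78), a reader of newly made chromatin at forks, Helq (0.98), a helicase, Rpa2 (0.82), a subunit of the single-strand binding protein RPA, and Rad18 (0.64), the ligase that ubiquitinates PCNA, with limma adjusted p-values of 8.70e-06, 1.90e-05, 0.000251 and 0.00032. In E2f TKO crypts 3 rose and 0 fell: Hells (0.74), a chromatin remodeller, Helq (0.50) and Rpa2 (0.55). Without the arrays labelled E2f TKO 2 and 5, these and Mad2l2 (0.42) rose, and Ercc1 (-0.37), Rev3l (-0.39) and Uimc1 (-0.30) fell. In Myc KO crypts 0 rose and 1 fell, which was Sfr1 (-0.34), a recombination cofactor. Over all genes 1.68% rose and 1.22% fell in E2f TKO crypts, or 3.35% and 3.92% without that pair of arrays. In Myc KO crypts 3.59% of all genes rose and 4.72% fell. In QKO crypts both lists held genes that rose and genes that fell, as the whole set of genes did.

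The mean signal of the 32 members was 7.73 to 8.09 in QKO, 7.48 to 7.94 in E2f TKO, 7.53 to 7.71 in Myc KO and 7.61 to 7.78 in control arrays, so QKO and control arrays overlapped. Single arrays stood apart within groups. E2f TKO 1 was the lowest of its group for 25 of the 32 members, QKO 1 the lowest for 21, and QKO 4 the highest for 23. How often these arrays were extreme over all genes was not counted. Other gene lists moved with the same groups. Of 28 S phase genes, 21 rose in QKO, 8 in E2f TKO and 0 in Myc KO crypts. Of 29 mitosis genes, 22 fell in QKO, 2 in E2f TKO and 0 in Myc KO crypts. Without the arrays labelled E2f TKO 2 and 5, 8 S phase genes rose and 10 mitosis genes fell in E2f TKO crypts, with array means of 9.82 to 10.48 and 8.48 to 9.57. The S phase mean was 10.19 to 10.87 in QKO, 9.82 to 10.48 in E2f TKO, 9.56 to 9.91 in Myc KO and 9.69 to 10.01 in control arrays. The mitosis mean was 8.44 to 9.26 in QKO, 8.48 to 9.87 in E2f TKO, 9.60 to 10.03 in Myc KO and 9.76 to 10.05 in control arrays. The share of these lists, and so of the mix of cycling cells, in the members' differences was not tested.

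**Figure D4:**
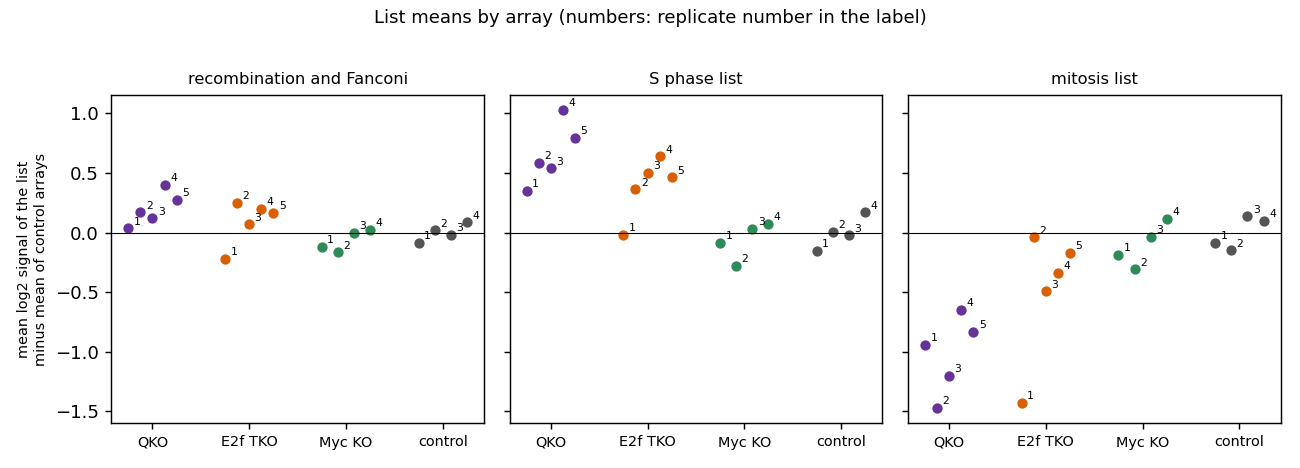
Mean log2 signal of the 32 members, of the S phase list and of the mitosis list in each array, minus the mean of the control arrays (y axis), by genotype (x axis), with the replicate number beside each point. The highest S phase means are those of QKO 4 and 5, and the lowest mitosis means those of the QKO arrays and E2f TKO 1, which is also the lowest array for the members.

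Markers of single cell types were read in the same fit. Over all genes 14.3% rose and 12.6% fell in QKO, 1.68% and 1.22% in E2f TKO, and 3.59% and 4.72% in Myc KO crypts. Without the arrays labelled E2f TKO 2 and 5 the E2f TKO shares were 3.35% and 3.92%. Of 12 enteroendocrine markers 8 rose in QKO, 3 in E2f TKO and 2 in Myc KO crypts, and their mean was 9.44 to 9.84 in QKO, 9.27 to 9.45 in E2f TKO, 9.07 to 9.41 in Myc KO and 8.70 to 9.00 in control arrays. With the arrays labelled E2f TKO 2 and 5 left out, 2 enteroendocrine and 0 stem cell markers rose in E2f TKO crypts, with array means of 9.33 to 9.45 and 8.86 to 10.01. Of 8 stem cell markers 3 rose in QKO, 0 in E2f TKO and 1 in Myc KO crypts, and their mean was 9.86 to 10.70 in QKO, 8.86 to 10.17 in E2f TKO, 9.76 to 10.09 in Myc KO and 9.48 to 9.70 in control arrays. Of 9 T cell markers 2 rose in QKO and 1 in Myc KO crypts, and the T cell and enterocyte means were highest in E2f TKO 1 (8.17 and 13.64). Of 8 goblet cell markers 1 rose in QKO, 1 fell in E2f TKO and 1 rose in Myc KO crypts, and their mean was 12.58 to 13.01 in QKO, 11.59 to 11.96 in E2f TKO, 12.61 to 12.95 in Myc KO and 12.39 to 12.62 in control arrays. The E2f TKO arrays stood below all others, while the median difference of the 8 markers from control was -0.03 and the lowest -6.02. Of 7 mast cell markers 2 fell in QKO, 2 fell in E2f TKO and 3 rose in Myc KO crypts. Their mean was 5.54 to 5.66 in QKO, 5.28 to 5.83 in E2f TKO, 6.32 to 7.26 in Myc KO and 6.06 to 6.30 in control arrays, so QKO and E2f TKO arrays lay below control and Myc KO arrays above it. With that pair of arrays left out, 1 goblet and 2 mast cell markers fell in E2f TKO crypts, with array means of 11.60 to 11.84 and 5.57 to 5.83. Of 13 enterocyte and 7 Paneth cell markers 0 passed against control in any genotype by limma. At an unadjusted p under 0.05 there were 0 enterocyte markers, and 1 Paneth cell marker each in QKO and Myc KO crypts. Of 8 fibroblast markers 1 rose in QKO crypts. The excess of 3′ over 5′ actin signal, a sign of RNA breakdown, was 0.19 to 0.31 in QKO, 0.26 to 0.78 in E2f TKO, 0.18 to 0.22 in Myc KO and 0.31 to 0.44 in control arrays. The part of these differences in the members' values was not tested.

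For 23 of the 32 members the arrays held more than 1 probe set, 72 in all. In QKO crypts the probe sets of 5 of the 23 genes disagreed in sign: Mre11a, Fancf, Rad51ap1, Rmi1 and Xrcc3. Those of Rad54l, Rad51c, Fancg, Fanca, Pif1 and Rad52 all lay on the same side of 0. The 4 Brca1 probe sets gave 0.91, 0.79, 0.66 and 0.12 in order of falling signal, so the dimmest showed little difference.

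**Figure D5:**
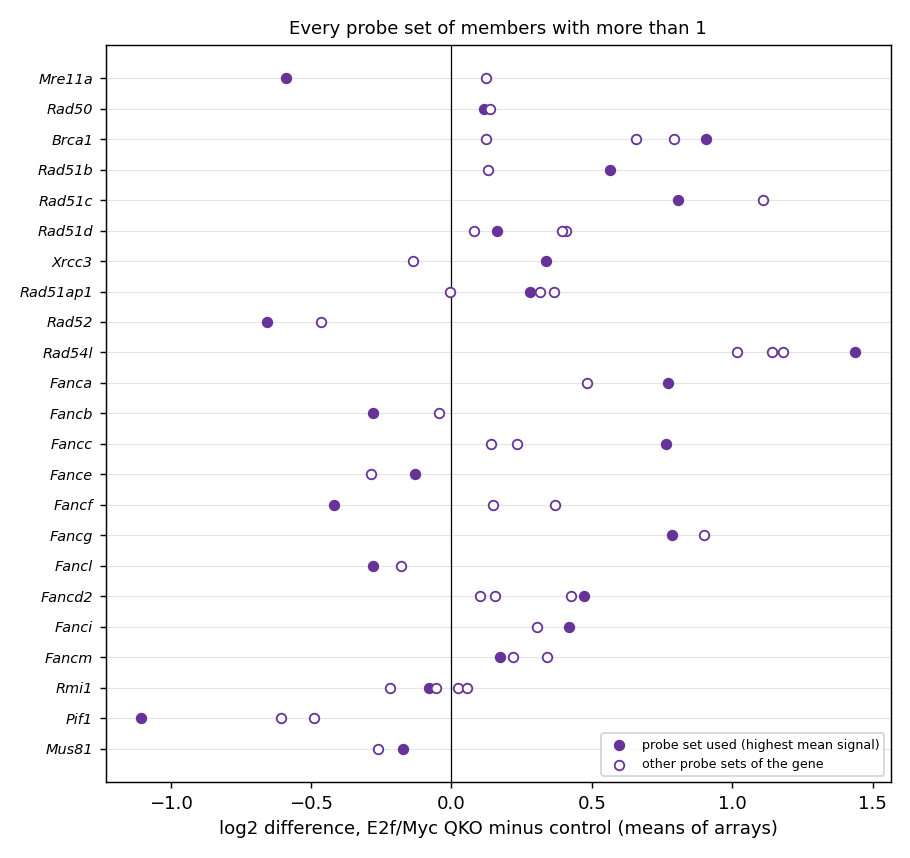
Log2 difference between QKO and control crypts (x axis, difference of array means) for each probe set of the 23 genes with more than 1 (y axis). Filled points are the probe sets used and open points the others. Rad54l spans 1.02 to 1.44 and Mre11a -0.59 to 0.12.

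In the promoter windows, 16 of 30 held an E2F-type core, which gave 14 of 26 genes at least 1, and 3 held the E-box CACGTG, the sequence Myc binds. Over the 32851 promoters of the same table and length, 9.57% held a core and 7.15% an E-box. By response in QKO crypts, a core stood in 5 of 11 genes that rose, 2 of 3 that fell and 7 of 12 that did not pass. An E-box stood in 1 gene that rose (Eme1), 0 that fell and 2 that did not pass (Rmi1 and Slx4). Rad54l, Fancc, Fanca, Palb2, Xrcc3 and Eme1 rose with no core in the window searched. A match is a description of letters, and no binding was measured in these crypts.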

How the data were processed

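Biotin-labelled total RNA from intestinal crypts was read on 18 arrays, each with 45101 probe sets. The authors deposited log2 signals, a scale inferred from their range (2.29 to 14.81). How they were normalized and summarised is not given in the sources used here, and no further normalization was made. Names came from the platform annotation, in which 34945 probe sets had 1 symbol, for 18193 genes. Dim probe sets were kept. The number of arrays limits the precision. Groups came from the titles. A single limma fit (limma 3.58.1 in R 4.3.3, with version 1.17.8 of data.table) of 4 group means gave 6 comparisons, two-sided, with Benjamini-Hochberg adjustment over all 18193 genes and a threshold of 0.05. Errors are SE of the fit. Figures used matplotlib 3.10.9 in Python 3.11.15.

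The members, gene lists and alternatives were chosen with earlier results of these data known. Values in every array are given for the 12 members with the smallest adjusted p in any comparison and the others by range in the groups a result concerns. In each comparison with control, up to 4 genes of the wider pathway list are named, those with the smallest p among the genes that passed. Same-numbered arrays were not treated as pairs. Alternatives were quantile normalization, a test of genes above the median level, averaged probe sets, no probe sets ending in _s_at or _x_at, a fit of 2 groups, a replicate block, trended robust eBayes, array weights, an Xist covariate, omission of the arrays labelled E2f TKO 2 and 5, and omission of each array.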

Additional observations from a re-analysis of the deposited data

Results flagged for a closer look

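Within each gene and group, the highest and the lowest array were compared with the nearest of the others by Dixon's ratio. Of 128 groups, 9 held an array that stood apart (7.03%), where chance gives about 1 in 20. For Mre11a the control 4 array read 8.44, with the nearest control array at 8.23. For Eme1 the same array read 8.17, with the nearest at 8.00. The E2f TKO 1 array was the low one for Rad51c (6.88, nearest 7.22), Fanci (7.77, nearest 8.15) and Blm (7.54, nearest 7.81). The array labelled E2f TKO 2 was high for Rmi1 (9.33, nearest 9.06). In Myc KO crypts Rmi1 was low in array 1 (8.99, nearest 9.06) and Rad51d low in array 4 (7.80, nearest 7.89). Fancb was high in QKO 4 (7.38, nearest 7.14). No member passed the test of the interaction, so 0 differences between groups are listed.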

How the results depend on the processing

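The count of members that passed against control in QKO crypts was 16 with the settings used. It stayed within 1.5 times that under every alternative, from 13 to 18, also when single arrays were left out. Over all genes, 10.6% to 19.2% rose and 9.42% to 22.3% fell under these alternatives. In E2f TKO crypts the count of members was 3 and became 1 with averaged probe sets, where 1.72% of all genes rose and 1.21% fell. It was 1 with the 2 groups alone (0.835% and 0.555% of all genes) and 5 with the replicate block (2.07% and 1.52%). With array weights it was 8 (4.04% and 3.41%). When the arrays labelled E2f TKO 2 and 5 were left out it was 7 (3.35% and 3.92%). In Myc KO crypts it was 3 and became 1 with averaged probe sets, where 3.72% of all genes rose and 4.17% fell. It was 6 with the 2 groups alone (6.37% and 8.37% of all genes) and 5 with array weights (8.92% and 9.92%). For QKO against E2f TKO it was 7 and became 4 with the 2 groups alone, where 4.29% of all genes rose and 4.23% fell. With the replicate block it was 11 (10% and 9.13% of all genes). The cause was not tested. Same-numbered arrays share only a number in the labels. The correlation of their deviations from the group means ran from -0.16 to 0.35 over all genes, exceeded 0.1 in 13 of 21 pairs, and was the best among the compared group's arrays in 10. With that number as a replicate block, Brca1, Bard1 and Mre11a also passed in E2f TKO crypts (adjusted p = 0.0259, 0.037 and 0.0152) and Fancg did not (0.0631). The replicate block gave 18 in QKO and 4 in Myc KO crypts, 12 for QKO against Myc KO and 0 for the interaction. With that block, 15.6% of all genes rose and 13.7% fell in QKO, and 4.19% and 5.82% in Myc KO crypts. For QKO against Myc KO the shares were 4.9% and 3.59%, and for the interaction 0.0495% and 0.011%. Leaving out single arrays gave 1 to 4 in E2f TKO crypts, where 0.874% to 2.9% of all genes rose and 0.649% to 1.66% fell. In Myc KO crypts it gave 2 to 4 (1.39% to 4.99% and 2.13% to 7.26% of all genes). It gave 5 to 9 for QKO against E2f TKO (6.29% to 11.4% and 5.72% to 12.2%). For QKO against Myc KO it gave 8 to 16 (2.98% to 6.33% and 1.9% to 4.71%), and for the interaction 0. Among the calls made with the settings used, 1 sign reversed. Fancf in QKO crypts became 0.033 (limma adjusted p = 0.813) with its probe sets averaged, which oppose each other. Sign changes of members without a call were not counted here. Brca1, Bard1, Palb2, Rad51c, Rad54l, Fanca, Fancc, Fancg, Fanci, Eme1, Pif1 and Rad52 kept their call against control in QKO crypts under every alternative that could give one. With only genes above the median level tested, 25 members remained. Dim probe sets limit Bard1 and the other members below that level.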
